A study of Mus musculus with 16 samples.

Results

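The genes described here encode the constitutive proteasome of mouse dendritic cells, together with its regulatory particles, its activators and the chaperones that assemble it. They were chosen by name: every gene whose symbol starts with Psma, Psmb, Psmc, Psmd, Psme or Psmg followed by a digit, without the immunoproteasome genes Psmb8, Psmb9 and Psmb10. No measured value entered the rule itself, apart from taking the probe set with the highest mean where a gene had several. The rule was set with earlier results of these data known. It gave 46 of the 19272 genes that had a probe set with a single symbol. Of the 46, 44 encode proteasome subunits, activators or assembly chaperones, and 33 of these are subunits of the 26S particle itself. The other two share only the prefix: Psmc3ip encodes a cofactor of meiotic recombination, and Psme3ip1 a protein that binds the activator Psme3.

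Bone marrow of C57BL/6 mice was the source of the cells in every group. GM-CSF, the growth factor used to turn marrow into dendritic cells, was present at 10 ng/mL throughout, and the labels name no sorting step. Cultures stayed at 290 mOsm/L, the normal osmolarity, or received NaCl from day 3 to reach 450 mOsm/L. Cells harvested on day 7 were replated for a final 6 h, either unstimulated or under LPS at 10 ng/mL. LPS is a bacterial cell wall component that activates dendritic cells through the receptor Tlr4. The 4 groups are therefore 290 mOsm, 290 mOsm with LPS, 450 mOsm and 450 mOsm with LPS, each with 4 microarrays. The labels give the same 4 mice to every group, so the replicates within a group are separate animals, whose age is not given in the sources used here. The design asks what salt does to resting and to activated dendritic cells, and what LPS does at either osmolarity.

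The 26S proteasome degrades proteins tagged with ubiquitin. Its barrel, the 20S core, is built from outer rings of alpha subunits, which form the gate, and inner rings of beta subunits, of which Psmb5, Psmb6 and Psmb7 carry the active sites. The 19S regulatory particle caps the barrel: its base holds a ring of ATPases that unfold substrates, and its lid holds the deubiquitinase Psmd14. In dendritic cells the proteasome also supplies peptides for presentation on class I molecules, and the immunoproteasome subunits Psmb8, Psmb9 and Psmb10 replace the constitutive active sites when the cells are stimulated.

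All values are log2 expression values of a probe set, and a change is a difference between group means on that scale, with limma's standard error. A gene was tested when 4 or more arrays lay over 6.83, the median of the whole table, and called when its Benjamini-Hochberg adjusted p over all 10236 tested genes was under 0.05. Of the 46 genes, 42 were tested, and 40 of them exceeded the filter level on all 16 arrays. The exceptions were the 20S assembly chaperones Psmg1, over the level on 15 arrays, and Psmg2, on 12. Below the filter were Psma8, the testis form of an alpha subunit, Psmb11, the thymus form of a beta subunit, the chaperone Psmg3 and Psmc3ip. Psma8 lay between 5.65 and 6.39, Psmb11 between 5.70 and 6.00, Psmc3ip between 5.85 and 6.31, and Psmg3 between 6.36 and 6.84. A microarray does not allow levels of different genes to be set against each other, so only the levels of 1 gene across groups are compared.

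Array medians lay between 6.78 and 6.93. The 450 mOsm array of mouse 4 had the lowest correlation with its own group, with a median r of 0.990 across the tested genes. The arrays carried signal of markers of more than 1 cell type. Of 10 dendritic cell markers, 6 to 9 exceeded the filter level in each group; Kmo was below it in all 4 groups, and Flt3 in all but 290 mOsm with LPS. The summed linear signal of 16 neutrophil markers ran from 27500 to 36200 at 290 mOsm and from 5370 to 6150 at 450 mOsm, and from 37900 to 47000 against 14900 to 15900 with LPS. That of 7 mast cell and basophil markers ran from 943 to 1650, 467 to 526, 1200 to 2340 and 596 to 629 in the same order, and B cell markers lay below the filter level in every group. Of 15 tested neutrophil markers, 15 fell with salt without LPS and 14 with LPS. With LPS 6 rose and 2 fell at 290 mOsm, and 9 rose and 2 fell at 450 mOsm. At 290 mOsm 15 of the 16 exceeded the filter level, with and without LPS, against 5 at 450 mOsm and 8 at 450 mOsm with LPS. Mmp8 (mean 12.12 at 450 mOsm) and Lcn2 (mean 13.41 at 450 mOsm with LPS) made up a large part of the sums there. Ngp went from 12.29 at 290 mOsm to 6.27 at 450 mOsm, and from 12.69 to 7.21 with LPS. All 11 macrophage markers found exceeded the filter level in every group. Their sum ran from 41900 to 43600 at 290 mOsm and from 38400 to 40100 at 450 mOsm, and with LPS from 41500 to 43000 and from 32400 to 35300; with salt 5 fell and 2 rose without LPS, and 7 fell with LPS. The sum of 6 monocyte markers ran from 11700 to 12500, 12000 to 15500, 13000 to 14700 and 8810 to 10600 in the same order. The part of these marker changes in the changes of proteasome genes was not tested. In such bulk samples, fewer cells of a type and less RNA per cell cannot be told apart.

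LPS raised most of the proteasome genes at 290 mOsm. Of the 42 tested, 24 rose and 9 fell, where 26.4% of all tested genes rose and 47.1% fell. The median change of the 42 was 0.17, against -0.11 for all tested genes. The largest rises were those of the activator genes Psme2 and Psme1, the alpha subunit gene Psma5 and the chaperone gene Psmd10, the only ones above 2-fold in this comparison. The groups did not overlap for 24 genes that were higher and 9 that were lower with LPS, where this held for 24.5% and 44.5% of all tested genes. The scaling of the arrays bears on this split: with cyclic loess, which moved the median of all genes to 0.02, 32 of the 42 rose and 2 fell. The plot of LPS responses by gene shows these changes beside those at 450 mOsm.

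**Figure D1:**
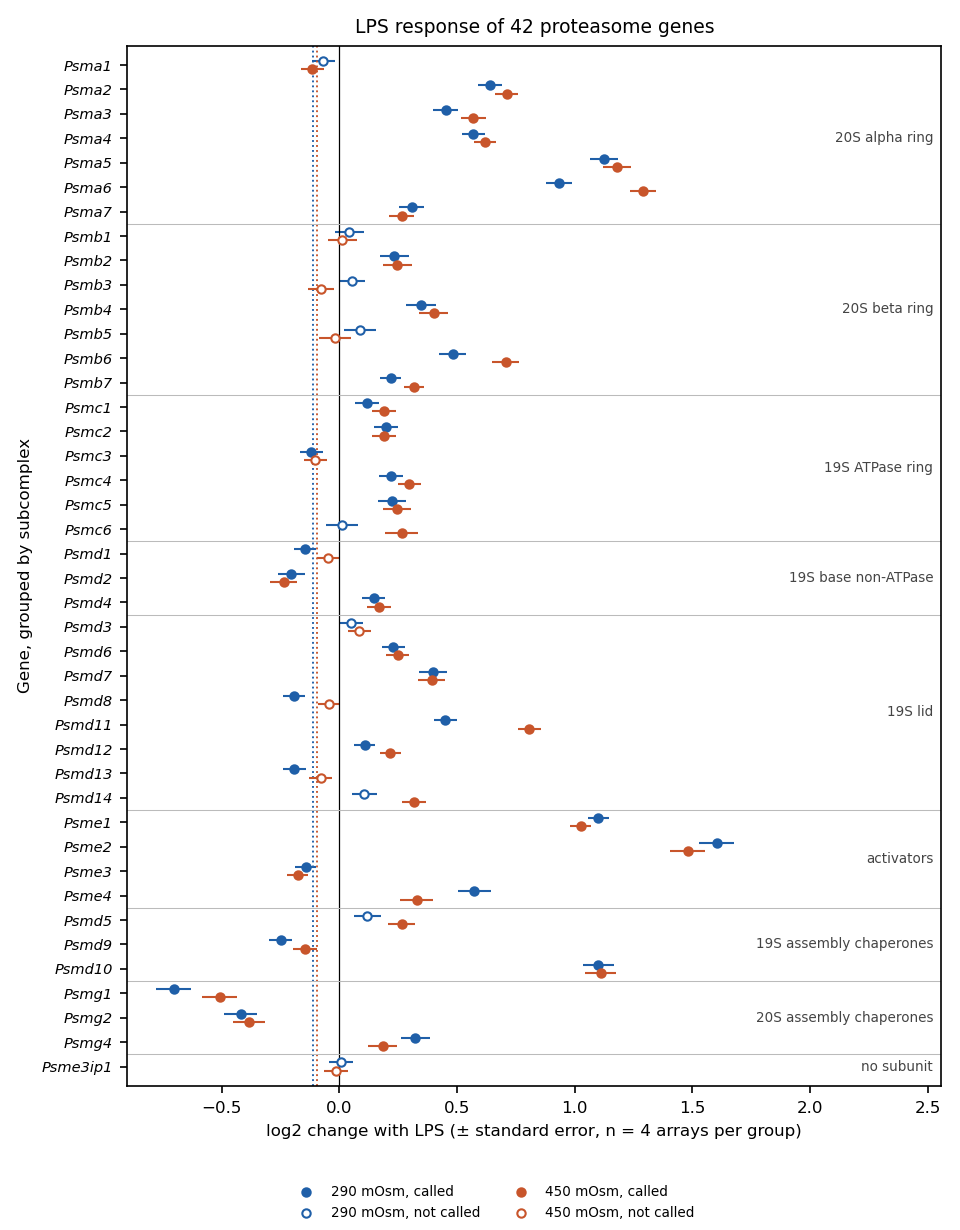
Change with LPS (log2, horizontal axis) of the 42 tested genes, grouped by subcomplex, at 290 mOsm (blue) and 450 mOsm (orange); bars are standard errors (n = 4 arrays per group), filled points were called, and dotted lines mark the median change of all tested genes. Psme2, Psma5, Psme1 and Psmd10 lie at or beyond 1.03 at both osmolarities, and Psmg1 and Psmg2 lie lowest; with cyclic loess the latter are the only ones of these genes called lower.

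In the alpha ring 6 of 7 tested subunits rose at 290 mOsm, with a median change of 0.57 and a range from -0.07 to 1.13. Psma5 was measured at 9.26, 9.32, 9.10 and 9.22 in mice 1 to 4 at 290 mOsm, and at 10.28, 10.42, 10.27 and 10.43 with LPS. Every array with LPS lay above every array without it. The rise was 1.13 ± 0.06 (2.18-fold, adjusted p = 9.37e-12), in 4 of 4 mice. Psma6 stood at 10.44, 10.60, 10.38 and 10.44 without LPS and at 11.45, 11.47, 11.31 and 11.36 with it, again without overlap. Its rise was 0.93 ± 0.06 (1.91-fold, adjusted p = 3.32e-11), in 4 of 4 mice. Psma2, Psma4, Psma3 and Psma7 rose by 0.64, 0.57, 0.45 and 0.31. Psma1 was the exception, at -0.07 ± 0.05 (adjusted p = 0.215), and was called lower with quantile normalization (-0.24). Its 95% interval ran from -0.17 to 0.03, below the rise of each of the other six.

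In the beta ring 4 of 7 tested subunits rose, with a median of 0.22, and the active-site subunits did not move alike. Psmb6, which carries the caspase-like site, was at 11.74, 11.69, 11.70 and 11.70 at 290 mOsm and at 12.18, 12.28, 12.13 and 12.17 with LPS. The groups were separate, and the rise was 0.48 ± 0.06 (1.40-fold, adjusted p = 4.08e-07), in 4 of 4 mice. Psmb7, which carries the trypsin-like site, was at 10.58, 10.62, 10.56 and 10.54 and then at 10.86, 10.79, 10.73 and 10.80. It rose by 0.22 ± 0.04 (1.16-fold, adjusted p = 0.000186), in 4 of 4 mice, though with quantile normalization it did not pass (0.04, adjusted p = 0.398). Psmb5, which carries the chymotrypsin-like site, gave 9.03, 9.10, 9.11 and 9.16 without LPS and 9.15, 9.21, 9.13 and 9.26 with it, and these groups overlapped. Its change was 0.09 ± 0.07 (adjusted p = 0.254), with a 95% interval from -0.06 to 0.23, and it passed the threshold under 1 alternative, cyclic loess (0.24). The structural subunits Psmb4 and Psmb2 rose by 0.35 and 0.23, and Psmb1 and Psmb3 were not called.

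**Figure D2:**
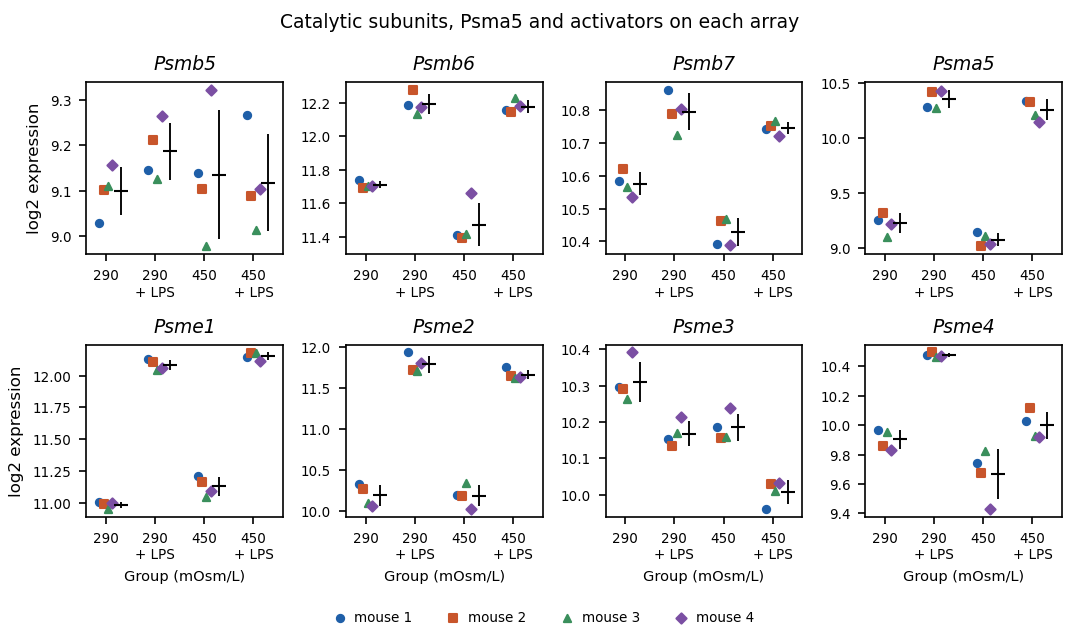
log2 expression on each array (vertical axis, a scale of its own in each panel) for the 3 active-site subunit genes, Psma5 and the 4 activator genes in the 4 groups; symbols are mice and the black marks are group means with SD (n = 4). Psme1, Psme2 and Psma5 separate cleanly with and without LPS at both osmolarities, Psmb5 overlaps between all groups, and the 450 mOsm array of mouse 4 is the highest of its group for Psmb6 (11.66) and the lowest for Psme4 (9.43).

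In the 19S particle the rises were smaller and the directions mixed. Among the 6 ATPases, which form the unfolding ring, 4 rose, led by Psmc5 (0.22), Psmc4 (0.22) and Psmc2 (0.20), and Psmc3 fell (-0.12). The call on the fourth, Psmc1, was lost in 21 of 30 alternatives, 16 of which left out a mouse or an array and 1 of which was the replicate block (adjusted p = 0.0523), and it turned to -0.0052 with quantile normalization. The fall of Psmc3 was lost in 10, among them the omission of mouse 1 (-0.0725), mouse 2 (-0.1299), mouse 3 (-0.1345), the 290 mOsm array of mouse 1 (-0.0923) and the LPS arrays of mice 1 (-0.0979) and 3 (-0.1206), and turned to 0.04 with cyclic loess.

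The base subunits that are not ATPases went in both directions. Psmd4, a receptor for ubiquitin chains, was at 8.89, 8.84, 8.86 and 8.82 at 290 mOsm and at 9.05, 9.04, 8.90 and 9.01 with LPS, without overlap. It rose by 0.15 ± 0.05 (1.11-fold, adjusted p = 0.0150), in 4 of 4 mice, and did not pass without mouse 1 (0.1432), mouse 2 (0.1289) or mouse 4 (0.1305). Psmd2, a large scaffold subunit, went from 11.15, 11.20, 11.16 and 11.24 to 10.94, 10.91, 10.97 and 11.12. Each LPS array was below each array without LPS, and the fall was -0.20 ± 0.06 (adjusted p = 0.00432); it did not pass without mouse 2 (-0.1751) or with cyclic loess (-0.09). Psmd1, the other large scaffold subunit, fell by 0.15, and did not pass without mouse 3 (-0.1322) or with cyclic loess (-0.02).

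Of the 8 lid subunits 4 rose and 2 fell. Psmd11 was at 10.30, 10.33, 10.26 and 10.33 without LPS and at 10.70, 10.80, 10.74 and 10.80 with it. The groups were separate, with a rise of 0.45 ± 0.05 (1.37-fold, adjusted p = 1.56e-07) in 4 of 4 mice. Psmd7 rose by 0.40, Psmd6 by 0.23 and Psmd12 by 0.11; the call on Psmd12 was lost in 12 of 30 alternatives, 9 of which left out a mouse or an array. Psmd6 itself was at 9.85, 9.79, 9.66 and 9.66 at 290 mOsm and at 10.03, 9.97, 9.93 and 9.96 with LPS. Psmd8 fell by 0.19, from 11.07, 11.06, 11.00 and 10.99 to 10.86, 10.82, 10.85 and 10.82, without overlap (adjusted p = 0.00104). Psmd13 fell by 0.19 as well (adjusted p = 0.00202), and neither fall passed with cyclic loess (-0.07 for Psmd8 and -0.05 for Psmd13). Psmd14, the deubiquitinase that removes the ubiquitin chain, gave 10.64, 10.63, 10.54 and 10.54 and then 10.76, 10.68, 10.66 and 10.69. The groups were separate, yet the change of 0.11 ± 0.05 missed the threshold (adjusted p = 0.0711). It passed with cyclic loess (0.24) and without the 450 mOsm array of mouse 3 (adjusted p = 0.0381), and was -0.07 with quantile normalization.

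The activators, which open the gate of the 20S core in place of the 19S particle, held the largest changes. Psme1 and Psme2 encode the alpha and beta subunits of PA28, an activator induced by interferon gamma. Psme2 was at 10.34, 10.27, 10.10 and 10.06 at 290 mOsm and at 11.94, 11.72, 11.71 and 11.81 with LPS, a rise of 1.60 ± 0.07 (3.04-fold, adjusted p = 9.73e-13). Psme1 was at 11.00, 10.99, 10.95 and 11.00 and then at 12.13, 12.11, 12.05 and 12.06, a rise of 1.10 ± 0.05 (2.15-fold, adjusted p = 1.92e-13). Neither gene overlapped between the groups, and both rose in 4 of 4 mice. Psme4, which encodes the large single-chain activator PA200, was at 9.97, 9.86, 9.96 and 9.83 and then at 10.48, 10.50, 10.46 and 10.47. It rose by 0.57 ± 0.07 (1.49-fold, adjusted p = 7.11e-07), in 4 of 4 mice. Psme3, which encodes the nuclear activator PA28 gamma, moved the other way, from 10.30, 10.29, 10.26 and 10.39 to 10.15, 10.13, 10.17 and 10.21. The groups did not overlap, and the fall was -0.14 ± 0.04 (adjusted p = 0.00687). That fall is close to the median of all genes, and with cyclic loess the change was -0.0042 (adjusted p = 0.933).

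The assembly chaperones split. Psmd10, known as gankyrin, which helps to assemble the ATPase ring, rose by 1.10 ± 0.07 (2.14-fold, adjusted p = 4.45e-11) in 4 of 4 mice, from 9.32, 9.45, 9.13 and 9.35 to 10.51, 10.32, 10.33 and 10.49. Psmd9, a chaperone of the same ring, fell by 0.25, from 7.98, 7.99, 8.17 and 8.13 to 7.88, 7.79, 7.74 and 7.86 (adjusted p = 0.000231), and did not pass with quantile normalization (-0.11) or cyclic loess (-0.09). Both pairs of groups were free of overlap. Psmg1 and Psmg2, which together form a chaperone of the alpha ring, fell most of all 42 genes. Psmg1 was at 7.62, 7.44, 7.57 and 7.74 and then at 6.85, 6.87, 6.89 and 6.94, a fall of -0.70 ± 0.07 (1.63-fold, adjusted p = 1.15e-07), and Psmg2 at 7.40, 7.20, 7.24 and 7.31 and then at 6.98, 6.85, 6.78 and 6.85, a fall of -0.42 ± 0.07 (1.34-fold, adjusted p = 2.80e-05). Both fell in 4 of 4 mice, without overlap, and their LPS values lie next to the filter level, where low signals are compressed. Psmg4, a further chaperone of the alpha ring, rose by 0.32 ± 0.06, from 7.33, 7.27, 7.25 and 7.18 to 7.77, 7.47, 7.53 and 7.56 (adjusted p = 0.000110).

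**Figure D3:**
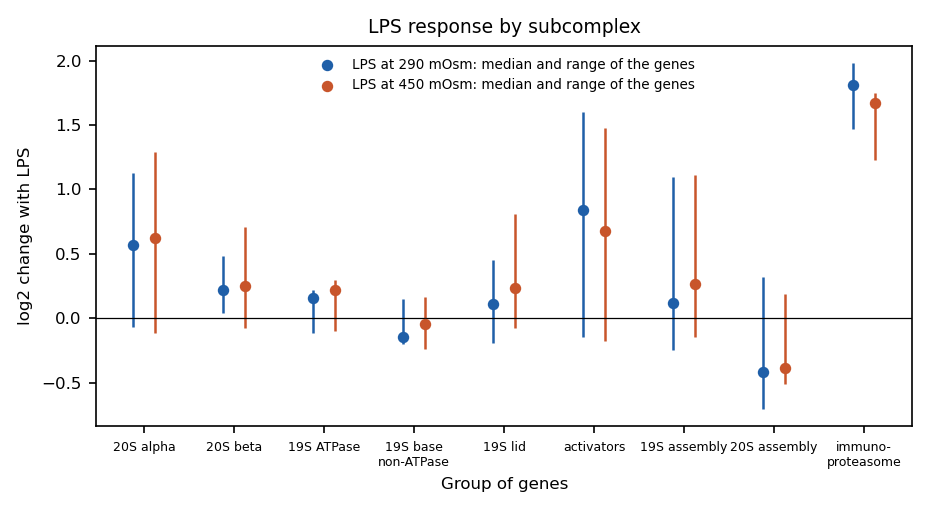
Median (points) and range (lines) of the log2 change with LPS over the tested genes of each subcomplex, at 290 mOsm (blue) and 450 mOsm (orange), with the 3 immunoproteasome genes at the right. The alpha ring has the highest median among the 26S parts (0.57 and 0.62), and the immunoproteasome genes lie at 1.23 or above at both osmolarities.

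The immunoproteasome genes rose more than any active-site gene of the constitutive core. Psmb9 rose by 1.98 ± 0.08, Psmb10 by 1.81 ± 0.06 and Psmb8 by 1.47 ± 0.07 at 290 mOsm, each in 4 of 4 mice and with an adjusted p of at most 1.14e-12. The constitutive subunits that they replace, Psmb6, Psmb7 and Psmb5, stood at 0.48, 0.22 and 0.09. With LPS at 450 mOsm, the immunoproteasome genes rose by 1.67, 1.75 and 1.23.

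At 450 mOsm the response of the proteasome genes to LPS was much the same in direction. Of the 42 genes, 27 rose and 6 fell, against 26.4% and 45.3% of all tested genes, and the median change was 0.25 against -0.09. All 24 genes called higher at 290 mOsm were called higher here, and 5 of the 9 called lower. The share of all tested genes that kept a call was not counted. The groups did not overlap for 27 genes that were higher and 7 that were lower, where the shares of all tested genes were 24.4% and 41.8%. With cyclic loess, 30 rose and 2 fell. The ATPase gene Psmc6 (0.26), Psmd14 (0.32) and the ATPase ring chaperone gene Psmd5 (0.26) were called higher here and had not passed at 290 mOsm (0.01, 0.11 and 0.12). The difference between the 2 responses was called for Psmd14 (adjusted p = 0.0493) and not for Psmc6 (0.0785) or Psmd5 (0.223). Psma1 was called lower here (-0.11), with a difference from 290 mOsm of -0.05 that was not called (adjusted p = 0.700); the call was lost in 13 of 30 alternatives, among them the omission of mouse 2, 3 or 4.

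The alpha ring again led the 26S subunits, with 6 of 7 higher and a median of 0.62. Psma6 was at 10.33, 10.19, 10.30 and 10.20 at 450 mOsm and at 11.53, 11.55, 11.51 and 11.60 with LPS, a rise of 1.29 ± 0.06 (2.44-fold, adjusted p = 3.08e-13). Psma5 went from 9.14, 9.01, 9.11 and 9.03 to 10.34, 10.33, 10.20 and 10.15, a rise of 1.18 ± 0.06 (2.27-fold, adjusted p = 4.37e-12). Both genes were higher on every LPS array, in 4 of 4 mice. Among the activators, Psme2 rose by 1.48 ± 0.07, from 10.19, 10.19, 10.34 and 10.02 to 11.76, 11.65, 11.63 and 11.64. Psme1 rose by 1.03 ± 0.05, from 11.21, 11.17, 11.04 and 11.09 to 12.15, 12.18, 12.18 and 12.11. Psmd10 rose by 1.11 ± 0.07, with 9.44, 9.37, 9.28 and 9.48 before and 10.50, 10.49, 10.54 and 10.49 after. The adjusted p of these 3 rises was at most 3.42e-11, and none of the groups overlapped.

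In the beta ring 4 of 7 tested subunits rose. Psmb6 rose by 0.71 ± 0.06 (1.63-fold, adjusted p = 2.24e-09), from 11.41, 11.39, 11.41 and 11.66 to 12.15, 12.15, 12.23 and 12.18. Psmb7 rose by 0.32 ± 0.04, from 10.39, 10.46, 10.47 and 10.39 to 10.74, 10.75, 10.77 and 10.72 (adjusted p = 2.82e-06). Both were separate between groups, in 4 of 4 mice. Psmb5 gave 9.14, 9.10, 8.98 and 9.32 without LPS and 9.27, 9.09, 9.01 and 9.10 with it. These values overlap, with a change of -0.02 ± 0.07 (adjusted p = 0.83) and a 95% interval from -0.16 to 0.13. Its sign turned under 6 of 30 alternatives and it passed the threshold in none.

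In the 19S particle 5 of 6 ATPases rose, by 0.19 to 0.30, and 5 of 8 lid subunits. Psmd11 rose by 0.81 ± 0.05 (1.75-fold, adjusted p = 4.45e-11), from 10.19, 10.15, 10.20 and 10.17 to 11.06, 10.95, 11.07 and 10.88. Psmd14 rose by 0.32 ± 0.05 (adjusted p = 2.30e-05), from 10.29, 10.28, 10.44 and 10.19 to 10.62, 10.61, 10.62 and 10.60. Neither gene overlapped, in 4 of 4 mice. Psmd6 rose by 0.25, from 9.49, 9.47, 9.51 and 9.49 to 9.76, 9.78, 9.70 and 9.72. Psmd4 rose by 0.17, from 8.79, 8.77, 8.71 and 8.73 to 8.90, 9.05, 8.87 and 8.86, and did not pass without mouse 2 (0.1319). Psmd2 fell by 0.24, from 11.17, 11.17, 11.10 and 11.27 to 10.92, 10.97, 10.83 and 11.05 (adjusted p = 0.00136), with no overlap, and did not pass with cyclic loess (-0.14). Psmd8, which fell at 290 mOsm, had a change of -0.04 ± 0.05 here (adjusted p = 0.433), from 11.03, 10.98, 11.15 and 11.13 to 11.00, 11.00, 11.08 and 11.04. It was called lower with quantile normalization (-0.20) and was 0.06 with cyclic loess. The difference between its LPS responses was 0.15 ± 0.07 and was not called (adjusted p = 0.116).

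Psme4 rose by 0.33 ± 0.07 at 450 mOsm (adjusted p = 0.000386), from 9.74, 9.68, 9.83 and 9.43 to 10.03, 10.11, 9.93 and 9.92. Psme3 fell by 0.18 ± 0.04 (adjusted p = 0.00140), from 10.19, 10.16, 10.16 and 10.24 to 9.96, 10.03, 10.01 and 10.03, and did not pass with cyclic loess (-0.05). Both held in 4 of 4 mice without overlap. Psmg1 fell by 0.51 ± 0.07, from 7.55, 7.47, 7.41 and 7.28 to 6.97, 6.92, 6.72 and 7.06 (adjusted p = 7.07e-06). Psmg2 fell by 0.38 ± 0.07, from 7.38, 7.24, 7.13 and 7.00 to 6.77, 6.77, 6.82 and 6.86 (adjusted p = 7.51e-05). These were the lowest of the 42 changes, as at 290 mOsm. Psmg4 rose by 0.19, from 7.03, 7.14, 7.05 and 7.03 to 7.18, 7.23, 7.35 and 7.22, and did not pass without mouse 3 (0.1459). Psmd9 fell by 0.15, from 7.99, 8.05, 8.01 and 8.05 to 7.90, 7.86, 7.87 and 7.89, and did not pass without mouse 2 (-0.1291) or mouse 4 (-0.1426), with quantile normalization (-0.02), with median centring (-0.10) or with cyclic loess (0.0042).

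The promoters of 3 of the 4 genes with LPS rises above 2-fold at 290 mOsm are shown beside those of 2 active-site genes, since proteasome genes are known to share control by the factor Nrf1 (gene Nfe2l1), which binds antioxidant response elements, and many carry a CCAAT box. The lines give the 100 bases before the RefSeq start site, 5′ to 3′ on the gene's strand (RefSeq, GRCm38.p6). Capitals mark matches to TGACNNNGC, the core of the antioxidant response element, or to CCAAT, on either strand (ATTGG on the other). Psma5 lies at chr3:108256826-108256925, Psme1 at chr14:55578394-55578493, Psmd10 at chrX:140956712-140956811 on the minus strand, Psmb6 at chr11:70525257-70525356 and Psmb5 at chr14:54617996-54618095 on the minus strand.
Psma5: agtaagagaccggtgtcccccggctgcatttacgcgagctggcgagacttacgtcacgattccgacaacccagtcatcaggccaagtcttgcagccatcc
Psme1: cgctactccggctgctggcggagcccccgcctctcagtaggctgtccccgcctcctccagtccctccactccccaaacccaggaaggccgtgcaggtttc
Psmd10: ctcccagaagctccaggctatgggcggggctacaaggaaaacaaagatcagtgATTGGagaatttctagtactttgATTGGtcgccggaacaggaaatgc
Psmb6: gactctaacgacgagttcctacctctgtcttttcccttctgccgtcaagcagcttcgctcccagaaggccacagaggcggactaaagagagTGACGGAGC
Psmb5: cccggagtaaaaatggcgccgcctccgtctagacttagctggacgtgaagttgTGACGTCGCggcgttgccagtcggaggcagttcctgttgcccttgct

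Promoter windows were found for 38 of the 46 genes, 42 windows in all, and 5 motifs were searched on both strands in the 250 bases before the start. TGACNNNGC was in 11.9% of these windows (Psmb5, Psmb6, Psmc6, Psmd9 and Psmd12), against 10.2% of the 32851 windows of all genes. CCAAT was in 35.7% against 33.8%. GAAANNGAA, most of the core of the interferon-stimulated response element, was in 7.14% against 7.13%, that is, in 3 windows: those of Psmb3, Psmd4 and Psmd9. TTCNNNGAA, the gamma-activated site, was in 2.38% against 7.02%, in the window of Psmg1, and GGGANTTTC, most of a kappa B site, in 0.0% against 0.941%. The last letter of the interferon and kappa B motifs was dropped after matches to the longer forms had been seen; dropping it raised the share of all windows that match and left that of the members as it was. None of the 5 motifs was in the windows of Psma5, Psme1 and Psme2, and of the genes with LPS rises above 2-fold at 290 mOsm only Psmd10 had a match, to CCAAT. A match is a stretch of letters and not a measured binding site.

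Salt without LPS lowered proteasome genes by small amounts. Of the 42 tested, 17 fell and 1 rose, where 23.7% of all tested genes fell and 20.6% rose. The median change was -0.11 against 0.00 for all tested genes, and 37 of the 42 changes were below 0. The groups did not overlap for 17 genes that were lower at 450 mOsm and 1 that was higher, against 20.4% and 16.4% of all tested genes. No fall exceeded 1.22-fold. The count depends on single mice and on the scaling: it was 9 without mouse 1, 8 without mouse 2, 9 with cyclic loess and 23 with median centring, with the median of the 42 below 0 in each. With cyclic loess the genes no longer called lower included Psma2, Psma3, Psma7, Psmb7, Psmc3 and Psmd12.

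**Figure D4:**
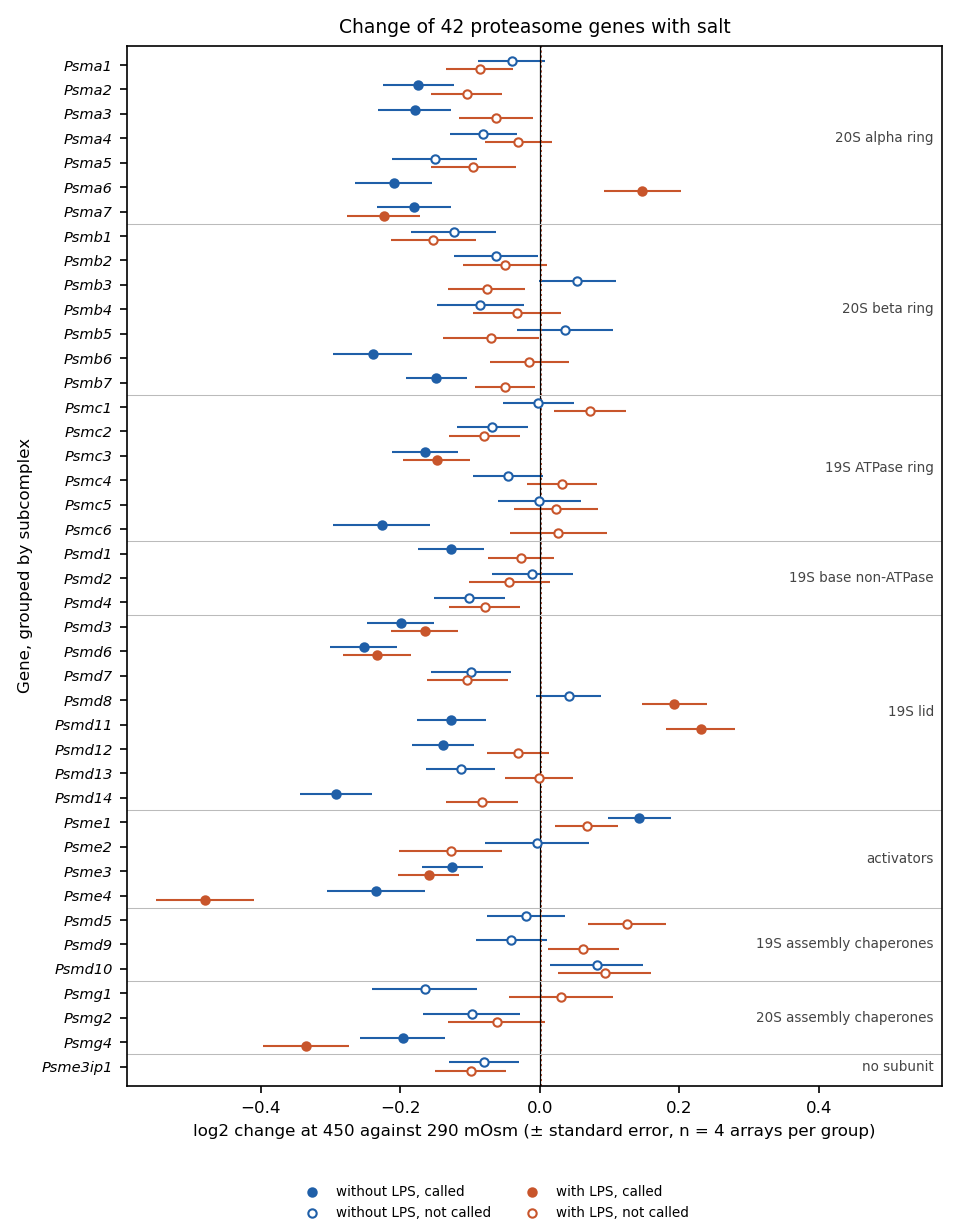
Change at 450 against 290 mOsm (log2, horizontal axis) of the 42 tested genes, grouped by subcomplex, without LPS (blue) and with LPS (orange); bars are standard errors (n = 4 arrays per group), filled points were called, and dotted lines mark the median change of all tested genes. Most blue points lie left of 0, while Psma6 and Psmd11 are lower at 450 mOsm without LPS and higher with it; the fall of Psmd11 was not called with cyclic loess.

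The lid held the largest falls. Psmd14 went from 10.64, 10.63, 10.54 and 10.54 at 290 mOsm to 10.29, 10.28, 10.44 and 10.19 at 450 mOsm. The groups were separate, and the fall was -0.29 ± 0.05 (1.22-fold, adjusted p = 0.000220), in 4 of 4 mice. Psmd6 fell by 0.25 ± 0.05 (adjusted p = 0.000483), and its 450 mOsm arrays, between 9.47 and 9.51, all lay below 9.66. Psmd3, Psmd12 and Psmd11 fell by 0.20, 0.14 and 0.13, which made 5 of 8 lid subunits. The fall of Psmd11 was lost in 16 of 30 alternatives, among them the omission of any 1 mouse and the replicate block (adjusted p = 0.0585). In the base, the ATPase genes Psmc6 and Psmc3 fell by 0.23 and 0.16 and Psmd1 by 0.13; the last was lost in 13 alternatives, including the omission of mouse 1, 2 or 3. Psmd2 and Psmd4 were not called. Without mouse 1 or mouse 2 neither Psmd12 (-0.119 and -0.1237) nor Psmc3 (-0.1245 and -0.1538) passed, and Psmc6 did not without mouse 4 (-0.1858), its 450 mOsm array (-0.1718) or the 290 mOsm array of mouse 1 (-0.1743).

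In the core, 4 of 7 alpha subunits and 2 of 7 beta subunits fell. Psma6 fell by 0.21 ± 0.06, from arrays between 10.38 and 10.60 to arrays between 10.19 and 10.33 (adjusted p = 0.00555), and did not pass without mouse 2 (-0.1448). Psma7, Psma3 and Psma2 fell by 0.18, 0.18 and 0.17, of which the last pair did not pass without mouse 1 (-0.151 and -0.1511) or mouse 2 (-0.1743 and -0.1513). Psmb6 fell by 0.24 ± 0.06 (1.18-fold, adjusted p = 0.00257), in 4 of 4 mice, with mouse 4 at 11.66 and the other three between 11.39 and 11.41, against a lowest value of 11.69 at 290 mOsm. Psmb7 fell by 0.15 ± 0.04 (adjusted p = 0.0107), and did not pass without mouse 1 (-0.1345) or mouse 2 (-0.1449). Psmb5 was not called, and its 450 mOsm arrays, from 8.98 to 9.32, spanned all 4 at 290 mOsm.

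Among the activators, Psme1 was the only one of the 42 genes that rose, by 0.14 ± 0.05 (1.10-fold, adjusted p = 0.0174), from arrays between 10.95 and 11.00 to arrays between 11.04 and 11.21. That call was lost in 6 of 30 alternatives: without mouse 1 (0.1213), without mouse 2 (0.1305), without the 450 mOsm array of either mouse (0.1148 and 0.13), with median centring and with only the groups compared. Psme4 fell by 0.23 ± 0.07 (adjusted p = 0.0124) and Psme3 by 0.13 ± 0.04 (adjusted p = 0.0274), both without overlap; the call on Psme3 was lost in 11 alternatives, among them the omission of any 1 mouse. Psme2 was not called, with arrays from 10.06 to 10.34 at 290 mOsm and from 10.02 to 10.34 at 450 mOsm. Psmg4 fell by 0.20 ± 0.06 (adjusted p = 0.0153), and of the chaperones of the 19S particle limma called 0, with 0 at an unadjusted p under 0.05. The immunoproteasome genes Psmb8 and Psmb10 rose by 0.32 ± 0.07 and 0.21 ± 0.06 (adjusted p = 0.00116 and 0.0113); Psmb10 did not pass without mouse 2 (0.2099) or with median centring (0.15).

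With LPS, salt calls were less frequent in the set than among all tested genes, in either direction. The median change was -0.06 against 0.00. Of the 42, 7 fell and 3 rose, against 21.8% and 16.8% of all tested genes. These are 10 calls beside the 18 without LPS, a difference that was not tested; with cyclic loess each contrast had 10, of which 5 fell and 5 rose with LPS. The groups did not overlap for 12 genes that were lower and 3 that were higher, against 22.3% and 17.1% of all tested genes. The 7 that fell, Psme4, Psmg4, Psmd6, Psma7, Psmd3, Psme3 and Psmc3, had also fallen without LPS. The share of all tested genes that fell in both was not counted.

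Psme4 had the largest salt change of any of these genes. Its 4 LPS arrays lay at 10.48, 10.50, 10.46 and 10.47 at 290 mOsm and at 10.03, 10.11, 9.93 and 9.92 at 450 mOsm. The groups are far apart relative to their spread, with a fall of -0.48 ± 0.07 (1.39-fold, adjusted p = 3.39e-05), in 4 of 4 mice. Psmg4 fell by 0.34 ± 0.06 (1.26-fold, adjusted p = 0.000298), with 7.77, 7.47, 7.53 and 7.56 at 290 mOsm and 7.18, 7.23, 7.35 and 7.22 at 450 mOsm, and Psmd6 by 0.23 ± 0.05 (adjusted p = 0.00101). Psma7 fell by 0.22, Psmd3 by 0.17, Psme3 by 0.16 and Psmc3 by 0.15. Of these, Psmd3 did not pass without mouse 1 (-0.1483) or 2 (-0.1576), and Psme3 without mouse 1 (-0.148) or with cyclic loess (-0.11). Psmc3 did not pass without mouse 2 (-0.1439) or 3 (-0.127), or without the 450 mOsm LPS array of mouse 1 (-0.1396) or 3 (-0.1298). Its call was also lost with quantile normalization (-0.1073), with cyclic loess (-0.1109) and without the filter (adjusted p = 0.0533).

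The 3 genes that rose were Psmd11, Psmd8 and Psma6. Psmd11 was at 10.70, 10.80, 10.74 and 10.80 at 290 mOsm and at 11.06, 10.95, 11.07 and 10.88 at 450 mOsm, a rise of 0.23 ± 0.05 (1.17-fold, adjusted p = 0.00121). Psmd8 was between 10.82 and 10.86 and then between 11.00 and 11.08, a rise of 0.19 ± 0.05 (adjusted p = 0.00302). Psma6 was between 11.31 and 11.47 and then between 11.51 and 11.60, a rise of 0.15 ± 0.06 (adjusted p = 0.0433). No array of these groups overlapped, in 4 of 4 mice. The rise of Psma6 was lost in 13 of 30 alternatives, among them the omission of any 1 mouse. Of the beta subunits limma called 0 in this comparison, and 1 had an unadjusted p under 0.05: Psmb1 (-0.15 ± 0.06, adjusted p = 0.0551), which passed with the mouse as a replicate block (adjusted p = 0.0312).

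The interaction, the difference between the salt change with LPS and that without, was called for 3 of the 42 genes, all higher, where 10.7% of all tested genes were called higher and 10.4% lower. Such calls were thus less frequent in the set than among all tested genes, in either direction. The interaction is the same number as the difference between the LPS rises at 450 and at 290 mOsm. Psmd11 had 0.36 ± 0.07 (adjusted p = 0.00105): its LPS rise was 0.45 at 290 mOsm and 0.81 at 450 mOsm. Psma6 had 0.36 ± 0.08 (adjusted p = 0.00279): its LPS rise was 0.93 and then 1.29. In both genes the level was lower with salt without LPS and higher with LPS, although the fall of Psmd11 was lost in 16 of 30 alternatives and the rise of Psma6 in 13. The interaction of both was above 0 in 4 of 4 mice and held in all 29 alternatives. Psmd14 had 0.21 ± 0.07 (adjusted p = 0.0493), with a salt change of -0.29 without LPS and -0.08 ± 0.05 with LPS (adjusted p = 0.219), the latter not called. That call held in 10 alternatives and was lost in 19, of which 16 left out a mouse or an array, with an adjusted p of up to 0.260 (0.0501 with the replicate block); the interaction was 0.1835 without mouse 2 and 0.1735 without the 450 mOsm array of mouse 4.

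**Figure D5:**
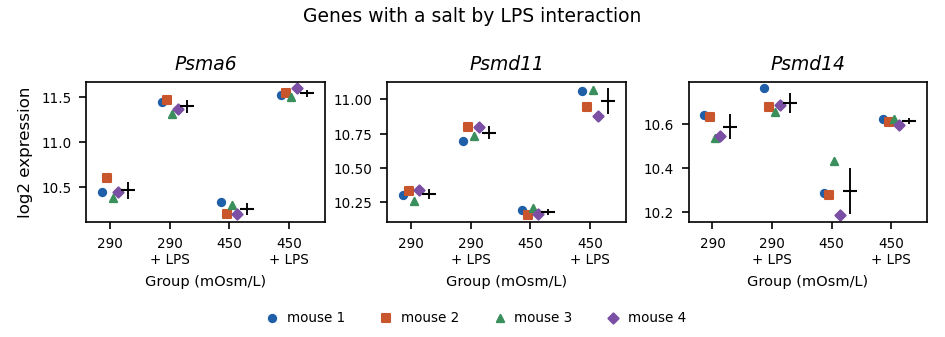
log2 expression on each array (vertical axis, a scale of its own in each panel) for Psma6, Psmd11 and Psmd14 in the 4 groups; symbols are mice and the black marks are group means with SD (n = 4). Psma6 and Psmd11 are lowest at 450 mOsm without LPS and highest at 450 mOsm with LPS, and Psmd14 is lowest at 450 mOsm without LPS; the interaction of Psmd14 was not called without mouse 1, 2 or 4.

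Some further interactions were not called but passed the threshold under some alternatives. Psmb6 had an interaction of 0.22 ± 0.08 (adjusted p = 0.0548), and passed in 7 alternatives; without the 450 mOsm array of mouse 4, its highest of that group, the value was 0.2889 (adjusted p = 0.00278). Psme4, the only one of the 42 with a lower interaction at an unadjusted p under 0.05, had -0.25 ± 0.10 (adjusted p = 0.0929), and passed without mouse 4 (-0.2777) and without the 450 mOsm array of mouse 4 (-0.3248), which was the lowest of its group at 9.43. Psmc6 had 0.25 ± 0.10 (adjusted p = 0.0785), and passed with quantile normalization (0.276) and without the 450 mOsm array of mouse 3 (0.2937).

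Other genes of the pathway were taken from a list of partners, inhibitors, regulators and ubiquitin-handling factors, of which 23 were found in the table and tested. With LPS at 290 mOsm 9 rose and 8 fell, where 26.4% of all tested genes rose and 47.1% fell, with a median of 0.06. Nfe2l1, the gene of the factor Nrf1, rose by 0.57 ± 0.05 (adjusted p = 8.69e-09). Ecpas, a proteasome adaptor gene, rose by 0.38, and Pomp, the chaperone that completes the 20S core, by 0.35. Zfand2a, a zinc-finger gene induced by proteotoxic stress, fell by 0.81, the ubiquitin shuttle gene Ubqln2 by 0.72, and the genes of the proteasome-bound deubiquitinases Usp14 and Uchl5 by 0.57 and 0.49. Each of these 7 changed in 4 of 4 mice, with an adjusted p of at most 6.14e-05.

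With LPS at 450 mOsm 10 of the 23 rose and 8 fell, against 26.4% and 45.3% of all tested genes. Txnl1, a thioredoxin-like protein of the 19S particle, rose by 0.61, Pomp by 0.56, Zfand5, a proteasome activator gene, by 0.52 and Nfe2l1 by 0.32. Ubqln2 fell by 0.74, Zfand2a by 0.52 and Akirin2, needed for nuclear import of proteasomes, by 0.50. The interaction was called for 4 of the 23, with 10.7% of all tested genes called higher and 10.4% lower: Zfand5 (0.45, adjusted p = 0.00264), Txnl1 (0.30, adjusted p = 0.0486), Nfe2l1 (-0.25, adjusted p = 0.0174) and Akirin2 (-0.29, adjusted p = 0.0100). That of Txnl1 was lost in 18 of 29 alternatives, Nfe2l1's without mouse 1 (-0.2408), 2 (-0.2605) or 3 (-0.24), and Akirin2's without mouse 2 (-0.2898). The LPS rise of Nfe2l1 was thus smaller at 450 mOsm, and those of Psma6 and Psmd11 were larger. Of the 42 proteasome genes, 39 had no called interaction, and a link to Nfe2l1 was not tested.

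With salt without LPS 2 of the 23 rose and 8 fell, against 20.6% and 23.7% of all tested genes. Usp14 fell by 0.47 ± 0.06 (adjusted p = 3.50e-06), Zfand5 by 0.43, Uba6, a ubiquitin-activating enzyme gene, by 0.41, and Pomp by 0.22. Nfe2l1 and Nploc4, a cofactor of the segregase Vcp, each rose by 0.15, calls lost in 8 and 11 of 30 alternatives. Pomp did not pass without mouse 1 (-0.1591). With salt in the presence of LPS 3 rose and 4 fell, against 16.8% and 21.8%. Those that rose were Zfand2a (0.37), Ube3c (0.17) and Bag6 (0.15), the last pair with calls lost in 8 and 14 of 30 alternatives. Among those that fell were Uba6 (-0.33), Usp14 (-0.28) and Uchl5 (-0.23). Uchl5 did not pass without mouse 1 (-0.1915).

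Of the tested genes, Psma3, Psma5, Psmb3, Psmc1 and Psmd2 had more than 1 probe set with the gene's symbol alone. Whether these probe sets are independent readings, or share probes with copies of the gene, was not tested. The second probe set of Psma5 gave LPS changes of 1.24 and 1.33 at 290 and 450 mOsm, beside 1.13 and 1.18. For Psma3 the 3 probe sets gave 0.45 to 0.47 at 290 mOsm and 0.57 to 0.58 at 450 mOsm, and for Psmd2 the second gave -0.18 and -0.19. In Psmc1 the probe sets differed for salt without LPS, at -0.13 and -0.002, and for Psmb3 both gave 0.05 with LPS at 290 mOsm. RefSeq lists pseudogenes or close copies of Psma5, Psmb5, Psmb6, Psmb7 and Psme2, whose transcripts may share probes with them, so the values of these genes are uncertain to that extent.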

How the data were processed

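Each of the 16 dendritic cell samples was measured on its own Affymetrix array. The labels do not state whether the samples of a mouse at the same osmolarity shared a culture up to day 7. The values are the log2 expression values of 22549 probe sets in the deposited table, which the authors made with RMA in the oligo package, per the submitters' processing notes. Package versions, any filter and the build were not given in the sources used here. That method corrects background, equalises the arrays' distributions and summarises probes, so a shift of most transcripts would be largely removed and folds of dim genes are understated. The number of arrays limits the precision. Platform annotation gave 1 symbol for 20646 probe sets, several for 551 and none for 1352; probe sets with several or none were left out. All 46 member genes were found in RefSeq by Entrez identifier.

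One linear model with a mean per group (limma 3.58.1, R 4.3.3) was fitted to the 16 arrays and 10236 genes, with 5 contrasts, two-sided tests and Benjamini-Hochberg adjustment over all genes of a contrast. The model was also run on simulated data, with independent noise per gene and no mouse effect or shift of whole arrays. That run therefore cannot show how the pairing or the scaling affects the calls. Figures were drawn with matplotlib 3.10.9. The members, the gene lists and the alternatives were chosen with earlier results of these data known. Every member could be named; values on every array are given for the 3 highest and 3 lowest called changes of each contrast and for a fixed set (Psmb5, Psmb6, Psmb7, Psme1 to Psme4, Psmd4, Psmd14 and Psmg1). Psmd10, outside that rule in every contrast, was added after its values were seen. Pathway genes were named for the 3 highest or lowest called changes, with Nfe2l1 and Pomp always. The rest of that list is not analysed here.

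The labels give the same mouse number to arrays of each group, which pairs them; deviations from the group means of arrays from the same mouse correlated across genes with r from -0.146 to 0.433 (median 0.0953; 11 of 24 pairs were over 0.1), whereas arrays of different mice had a median r of -0.0351. Alternatives changed the filter (none, or the percentile raised to 65), the choice among probe sets (their mean), the scaling (quantile, cyclic loess, median centring), the variance model, the groups in the fit and the block (mouse, fixed or random), or omitted each mouse or array in turn.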

Additional observations from a re-analysis of the deposited data

Results flagged for a closer look

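Among the 76 gene and group combinations examined, 1 array stood apart from the other three of its group in 3 cases, and a test of this kind flags about 1 in 20 groups by chance. Psmb6 was 11.66 on the 450 mOsm array of mouse 4, against 11.39 to 11.41 in the other mice. Psme2 was 11.76 on the 450 mOsm LPS array of mouse 1, against 11.63 to 11.65. Psmg4 was 7.14 on the 450 mOsm array of mouse 2, against 7.03 to 7.05.

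The salt change differed with and without LPS, by the interaction term in limma, for 3 of the 42 proteasome genes, all higher, where 10.7% of all tested genes were called higher and 10.4% lower: Psmd11 (0.36, adjusted p = 0.00105), Psma6 (0.36, adjusted p = 0.00279) and Psmd14 (0.21, adjusted p = 0.0493), the last a call lost in 19 of 29 alternatives. It also differed for the immunoproteasome gene Psmb9 (-0.31, adjusted p = 0.0483), a call lost in 18 of 29 alternatives, and for Zfand5 (0.45, adjusted p = 0.00264), Txnl1 (0.30, adjusted p = 0.0486), Nfe2l1 (-0.25, adjusted p = 0.0174) and Akirin2 (-0.29, adjusted p = 0.0100). Among the 42 proteasome genes, such calls were less frequent than among all tested genes, in either direction.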

How the results depend on the processing

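The median change of the proteasome genes kept its sign under every alternative run for the 5 contrasts. For salt without LPS it was -0.0583 with cyclic loess and -0.1631 with median centring, and -0.1297 to -0.0759 when a mouse or an array was left out; the number of genes that fell was 9 with cyclic loess and 8 to 18 when one was left out, and the number that rose was 0 with median centring and with only the groups compared, and 0 to 1 when one was left out. For salt with LPS the median was -0.0316 with quantile normalization, -0.0196 with cyclic loess, -0.0887 with median centring and -0.0823 to -0.0388 with one left out. For LPS at 290 mOsm it was 0.1184 without the filter, 0.2005 with the stricter filter, 0.1395 with quantile normalization and 0.3258 with cyclic loess, where 2 genes fell. For LPS at 450 mOsm it was 0.204 without the filter, 0.1716 with quantile normalization, 0.3748 with cyclic loess, where again 2 fell, and 0.2941 with median centring. For the interaction 0 to 1 genes were lower when a mouse or an array was left out. The sign turned with cyclic loess for Psma1 (0.0569) and Psmc3 (0.0373) at 290 mOsm and for Psmb5 (0.1209), Psmd8 (0.0611) and Psmd9 (0.0042) at 450 mOsm; with quantile normalization for Psmc1 (-0.0052) and Psmd14 (-0.0725) at 290 mOsm and for Nploc4 (-0.0085) and Psmb5 (0.0265) at 450 mOsm; and with median centring for Psmb5 (0.029) and Psmd8 (0.0052) at 450 mOsm, all of them LPS changes. Psmb5 at 450 mOsm ran from -0.0709 to 0.0494 with one left out. The cause of these changes was not tested.

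With the mouse as a fixed replicate block, which uses the pairing, 23 genes rose and 9 fell with LPS at 290 mOsm, 27 and 6 at 450 mOsm, 1 and 17 with salt without LPS, 3 and 8 with salt with LPS, and 2 and 0 in the interaction. The block ended the calls on Psmc1 (LPS at 290 mOsm), Psmd11 (salt without LPS) and Psmd14 (interaction, adjusted p = 0.0501), and added those on Psma5 (salt without LPS, -0.15, adjusted p = 0.0483) and Psmb1 (salt with LPS). The random block had a consensus correlation of 0.0733. Signals near the filter level, such as those of Psmg1 and Psmg2, limit the size of a change that these arrays can show.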
